A study of Mus musculus with 75 samples.

Results

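Ribosome-bound RNA of somatostatin (SST) neurons of the mouse visual cortex was compared between mice given 3 h of light after dark housing and mice kept in the dark. The comparison used 5 of the 73 libraries with values in the series (75 samples are labelled), namely 3 libraries of 3 h of light and 2 of dark housing, taken by the Cre line, housing and light time in the sample labels. All mice were 8 weeks old and of the C57BL/6 strain, and were heterozygous both for SST-Cre and for the RiboTag allele Rpl22-HA, a ribosomal protein that carries the HA tag where Cre is active. Visual cortex tissue from 3 animals was combined for each library. Dark replicate 2 was not analysed here because its column is empty, so the dark group holds replicates 1 and 3 and the light group replicates 1, 2 and 3. SST libraries of 1 h and 7.5 h of light (3 each) and of standard housing (2) entered the same fit, and the PV, VIP and Emx lines served to ask whether a change differed between Cre lines.

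SST neurons are inhibitory cells that contact mainly the dendrites of other cortical neurons and release the peptide somatostatin beside GABA. When neurons are driven, a first wave of genes, many of them transcription factors of the Fos, Egr and Nr4a families, is transcribed from factors already present, and these then act on later genes for synaptic, secreted and signalling proteins. RiboTag reads the part of this programme that is loaded on ribosomes, so a change in it can come from transcription, RNA stability or ribosome loading.

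The libraries carried the marks of the labelled cells. Sst itself stood at 88158, 93663 and 77071 in the light libraries and at 73770 and 69334 in the dark ones (signal, that is gene reads scaled per library; 1 read was worth 0.501 to 0.845 in these 5). Over all 13 SST libraries it averaged 85022, against 278 in the Emx line. Its change with light was a log2 difference of 0.27 ± 0.17 (SE) and did not pass the test. RNA of other cells was present. Slc17a7, the vesicular glutamate transporter of excitatory neurons, averaged 1885 in the SST line and 23451 in the Emx line, and Mbp, a myelin protein, 3270.4 and 27492. The Emx libraries held glial RNA beside that of excitatory neurons, with mean sums of 186292 over 10 astrocyte markers and 76350 over 10 oligodendrocyte markers. The 14 excitatory markers summed to 29426 to 44893 in light libraries and 32266 to 41903 in dark ones, against a mean of 174840 in the Emx line, with none called (1 higher and 2 lower with the replicate block described below). The 10 general markers of inhibitory neurons summed to 151287 to 154411 in the light and 127252 to 140293 in the dark, with no member called (3 of 10 higher with the block). In such pooled material, fewer cells of a type and less RNA per cell cannot be told apart.

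Depth was 31.7, 45.7 and 32.4 M gene reads at 3 h and 38.1 and 25.2 M in the dark (M stands for mega). Replicates of a group differed far more than counting error allows (chi-square per degree of freedom of 68.2 at 3 h and 111 in the dark). The p-values of the SST fit rest on the spread between pools within groups, taken over all 13 SST libraries. Libraries of the same replicate number deviated together from their group means, so these pools were not fully independent. Snap25 is listed at 0 in all 3 light libraries against 310380 and 222370 in the dark, and Zc3h7a likewise at 0 against 371 and 385. An exact 0 can be a failed estimate, and 10 SST genes with such values were set aside after they had been seen.

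After 3 h of light, 57 of 14206 genes tested (0.401%) were higher than in the dark and 1 (0.00704%) was lower (limma on log2(signal + 1), adjusted p under 0.05). The 57 rises ranged from 1.71-fold to 58.2-fold with a median of 3.24-fold, and 54 of them exceeded 2-fold. The median change of all genes tested was -0.01 on the log2 scale. Libraries that share a replicate number shared much of their variation, and when the number entered the fit as a block, 576 genes (4.05%) were higher and 196 (1.38%) lower. All 58 genes called without the block were also called with it, and these are described first. With the block, 55, 57 and 57 of the 58 were still called without light replicates 1, 2 and 3. Fewer were called without either dark replicate, which leaves 1 dark library. The fits below that each left out 1 library were made without the block unless stated. The light and dark libraries did not overlap for any of the 58; of all genes tested, 8.74% had every light library above both dark ones and 10.2% had every one below. Fold changes are on the log2(signal + 1) scale, which understates those of genes with few reads.

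The largest rise was that of Fosb, which encodes a Fos-family subunit of the transcription factor AP-1. It stood at 6531, 5518 and 3723 in the light libraries against 94.3 and 80.2 in the dark, a 58.2-fold difference (log2 5.86 ± 0.37 SE, adjusted p = 6.42e-06). The lowest light library lay far above the higher dark one, and the same held in both same-numbered pairs, with log2 differences of 6.10 for number 1 and 5.52 for number 3. Fosl2, another Fos-family member, had 10710, 11243 and 8906 in the light and 1017 and 851 in the dark (11.0-fold, adjusted p = 3.70e-06). Fos had 2219, 2694 and 2985 against 125 and 296 (13.5-fold, adjusted p = 0.000357). The dark libraries differed from each other more for Fos than for Fosl2, and neither gene's groups overlapped. Junb, an AP-1 partner of the Fos proteins, stood at 321, 354 and 634 in the light and 74.4 and 111 in the dark (4.53-fold, adjusted p = 0.0212), and its call was kept in 1 of the 5 fits that each left out 1 library (adjusted p up to 0.287, without dark replicate 1).

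**Figure D1:**
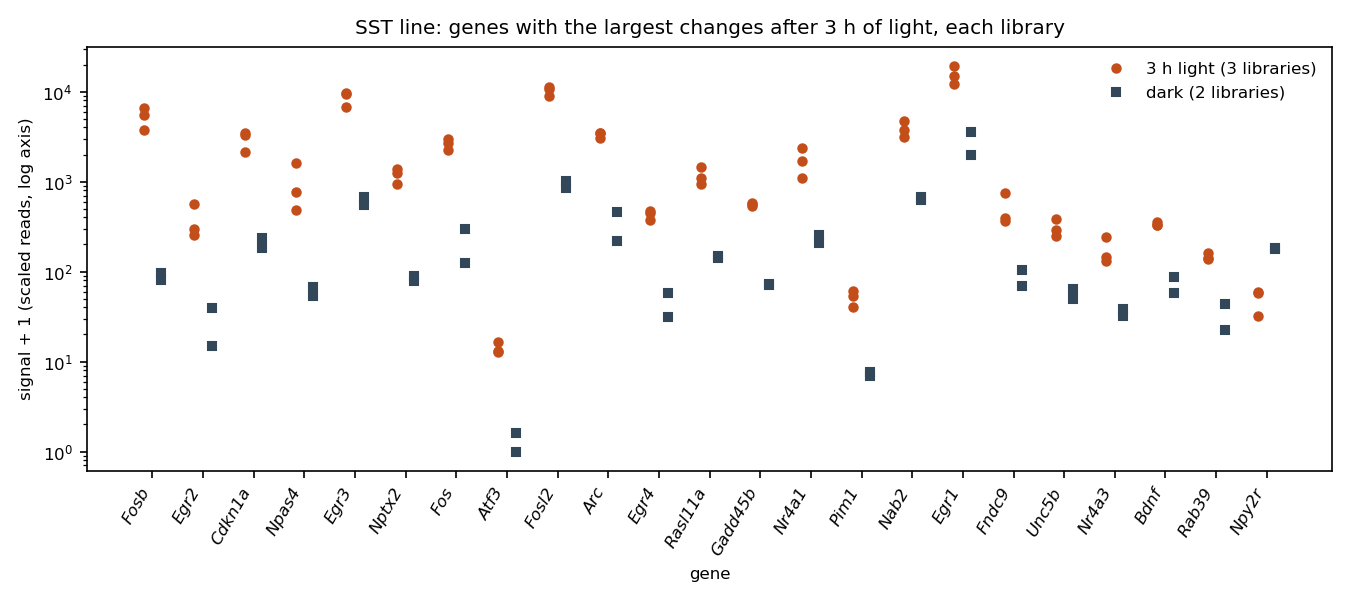
Signal plus 1 (scaled gene reads, log axis) in each SST library for the 22 largest rises and the only fall among the called genes, with 3 libraries after 3 h of light (circles) and 2 dark libraries (squares). The groups did not overlap for any of them; Fosb stood at 3723 to 6531 after light and at 80.2 and 94.3 in the dark, and Npy2r is the gene with the lower light values.

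All 4 members of the Egr family of zinc finger factors rose. Egr3 had 9418, 9666 and 6787 in the light against 548 and 679 in the dark (13.9-fold, adjusted p = 6.09e-05). Egr2 had 257, 296 and 560 against 13.9 and 38.9 (14.4-fold, adjusted p = 0.000595). Egr4 had 372, 476 and 442 against 30.2 and 57.4 (10.0-fold, adjusted p = 6.09e-05). Egr1, the most abundant of the family, reached 12161, 14966 and 19131 against 1964 and 3549 (5.74-fold, adjusted p = 0.000595). Nab2, a corepressor that binds Egr proteins, rose beside them, with 3724, 4658 and 3157 in the light and 616 and 669 in the dark (5.91-fold, adjusted p = 0.000157).

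Npas4, a factor that neurons make in response to calcium entry, varied widely among the light libraries, with 769, 485 and 1604 against 66.5 and 53.2 in the dark. Even its lowest light value was far above the dark ones (13.95-fold, adjusted p = 0.000595). The Nr4a orphan nuclear receptors all rose. Nr4a1 had 1082, 1714 and 2336 in the light against 205 and 257 in the dark (7.08-fold, adjusted p = 0.000595), Nr4a3 had 143, 238 and 131 against 30.8 and 37.2 (4.76-fold, adjusted p = 0.00714), and Nr4a2 rose 3.08-fold (adjusted p = 0.0216). The calls of Nr4a3 and Nr4a2 were less secure, held in 3 and 1 of the 5 fits that left out a library (adjusted p up to 0.107 and 0.219, both without dark replicate 1). Atf3, a stress and activity factor, was called at low reads, with 11.7, 12.02 and 15.6 in the light and 0.605 (1 read) and 0 in the dark, and every omission of a library ended its call (adjusted p up to 0.259, without dark replicate 3).

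Of 28 immediate early transcription factors measured, 13 rose and none fell, and 22 rose with the block. Their median log2 change was 1.91. Among the 15 that did not pass without the block were Jun, Jund and Klf4, with log2 differences of 0.40, 0.38 and 0.04, beside the AP-1 partner Junb that rose. Fosl1 was low, with 10.3, 33.6 and 7.30 in the light and 1.46 and 0 in the dark, and was called only with the block (adjusted p = 0.0241, against 0.295 without it).

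The promoters of 4 of these factors, and that of Homer1, a synaptic gene described after them, are shown because the named motifs of activity-dependent transcription can be read in them. Windows run from 250 bases before to 50 after the annotated start, are RefSeq sequence of GRCm38.p6 and are written in the direction of the gene. Capitals mark TGACG on either strand, the core of the cyclic AMP response element that CREB binds. These are Fosb (chr7:19309996-19310295, minus strand), Fos (chr12:85473640-85473939, plus strand), Npas4 (chr19:4989922-4990221, minus strand), Nr4a1 (chr15:101266596-101266895, plus strand) and Homer1 (chr13:93303507-93303806, plus strand, the upstream one of its 2 windows).
Fosb: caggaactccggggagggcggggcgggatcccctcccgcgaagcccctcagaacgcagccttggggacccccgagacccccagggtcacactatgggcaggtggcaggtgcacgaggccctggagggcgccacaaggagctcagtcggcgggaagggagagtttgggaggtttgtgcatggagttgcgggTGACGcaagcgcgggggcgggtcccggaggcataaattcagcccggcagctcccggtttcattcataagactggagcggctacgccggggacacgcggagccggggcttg
Fos: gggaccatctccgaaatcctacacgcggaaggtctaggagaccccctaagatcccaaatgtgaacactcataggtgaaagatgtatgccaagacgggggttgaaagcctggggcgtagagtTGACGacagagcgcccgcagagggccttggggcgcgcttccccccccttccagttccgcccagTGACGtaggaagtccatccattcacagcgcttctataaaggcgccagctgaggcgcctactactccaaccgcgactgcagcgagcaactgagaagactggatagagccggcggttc
Npas4: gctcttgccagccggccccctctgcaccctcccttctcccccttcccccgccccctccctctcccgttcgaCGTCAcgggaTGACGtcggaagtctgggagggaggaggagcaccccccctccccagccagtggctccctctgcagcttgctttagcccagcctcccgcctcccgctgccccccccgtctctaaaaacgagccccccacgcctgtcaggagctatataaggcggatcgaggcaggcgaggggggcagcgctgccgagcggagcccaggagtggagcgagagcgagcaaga
Nr4a1: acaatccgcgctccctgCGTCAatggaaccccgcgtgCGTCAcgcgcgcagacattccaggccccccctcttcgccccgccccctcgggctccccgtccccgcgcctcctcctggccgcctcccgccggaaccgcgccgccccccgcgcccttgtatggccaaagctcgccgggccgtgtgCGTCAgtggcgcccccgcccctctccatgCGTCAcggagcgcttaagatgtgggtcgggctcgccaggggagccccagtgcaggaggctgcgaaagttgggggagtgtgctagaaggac
Homer1: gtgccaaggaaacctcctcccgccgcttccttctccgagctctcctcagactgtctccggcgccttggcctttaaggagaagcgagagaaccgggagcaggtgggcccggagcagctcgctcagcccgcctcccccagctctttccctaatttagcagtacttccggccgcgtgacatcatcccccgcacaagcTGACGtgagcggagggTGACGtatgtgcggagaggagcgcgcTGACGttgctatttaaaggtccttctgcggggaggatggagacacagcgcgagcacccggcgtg
The motif occurs 1 time in the Fosb window, 2 times in those of Fos and Npas4, 4 times in that of Nr4a1 and 3 times in that of Homer1.

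Of the 57 genes that rose, 43 matched the promoter table by symbol, and 22 of them (51.2%) held TGACG on either strand in at least 1 window, against 34.6% of 10593 tested genes that matched. Counted by window, 27 of 63 windows of these genes (42.9%) and 20.8% of all 32851 windows in the table held it; genes with several start sites have several windows. The full palindrome TGACGTCA was in none of the 43 and in 3.55% of the matched genes. TGANTCA, a pattern wider than the AP-1 site TGA(C/G)TCA because it admits any middle base, was in 4 of 43 (9.30%) and 6.01%. The CArG box of serum response factor was in 2 (4.65%) and 1.60%. Of the letters Egr proteins bind, GCGTGGGCG was in 1 (2.33%) and 1.37%, and GCGGGGGCG in 7 (16.3%) and 6.59%. A match describes the letters in this window and not a bound site, and a window without one says nothing about the factor.

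Genes for synaptic and signalling proteins formed the next group. Arc, which promotes removal of AMPA receptors from synapses, stood at 3452, 3042 and 3493 in the light and 220 and 454 in the dark (10.5-fold, adjusted p = 0.000369). Homer1, a scaffold of excitatory synapses whose short form is the one known to follow activity, had 7628, 6166 and 5396 against 2203 and 1733 (3.24-fold, adjusted p = 0.00304). The table gives 1 value per gene and does not separate its forms, and its call was lost only without dark replicate 3 (adjusted p = 0.0719). Gadd45b, linked to DNA repair and demethylation, was very even, with 578, 564 and 541 against 71.9 and 70.1 (7.80-fold, adjusted p = 4.43e-05). The kinase gene Pim1 was low, with 59.2, 53.1 and 39.2 against 6.65 and 5.91, and its call (adjusted p = 0.00886) was kept in 1 of 5 omissions, with adjusted p up to 0.109 (without dark replicate 3). Of 26 early activity-regulated effectors, 8 rose (Arc, Homer1, Sik1, Ptgs2, Gadd45b, Pim1, Trib1 and Midn), none fell, and 15 rose with the block. The median log2 change of this list was 1.06.

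Cdkn1a, an inhibitor of cyclin-dependent kinases, had the third largest fold change in these nondividing cells, with 3443, 3316 and 2152 in the light against 235 and 182 in the dark (13.97-fold, adjusted p = 2.36e-05). In the list of cell cycle inhibitors and Gadd45 genes, 2 of 15 rose (Cdkn1a and Gadd45b), and 4 did with the block, which added Gadd45g and Plk2. Rasl11a, a small GTPase of the Ras family, had 1439, 951 and 1091 in the light and 141 and 147 in the dark (7.90-fold, adjusted p = 4.43e-05). Rab39, a GTPase of vesicle traffic, had 142, 136 and 158 against 21.2 and 43.1 (4.67-fold, adjusted p = 0.0119). Rab39 was called in 1 of 5 omissions (adjusted p up to 0.211, without dark replicate 1), whereas Cdkn1a and Rasl11a were called in all 5.

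Of 24 activity-regulated secreted factors, 3 rose, none fell, and 7 rose with the block. Nptx2, a secreted pentraxin that gathers AMPA receptors at synapses, had 1232, 1375 and 938 in the light and 78.6 and 88.7 in the dark (13.8-fold, adjusted p = 2.36e-05). Bdnf, a neurotrophin, had 330, 326 and 351 against 56.2 and 87.0 (4.74-fold, adjusted p = 0.0016), a light group with an SD of 13.4. Vgf, the precursor of several secreted peptides, had 9594, 14896 and 8979 against 3872 and 2978 (3.20-fold, adjusted p = 0.0463), and this call was lost in each omission of a library (adjusted p up to 0.498, without dark replicate 3). Inhba, Cbln4, Tnfrsf12a and Crh were the 4 added by the block. Cbln4, a synapse organizer of SST neurons, had 4155, 3263 and 2895 in the light and 1916 and 1427 in the dark, a log2 difference of 1.15 with the block (adjusted p = 0.000117) that did not pass without it (adjusted p = 0.101).

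Proteins of the cell membrane are described next. Unc5b, a receptor for the guidance factor netrin, had 286, 379 and 247 in the light and 49.0 and 63.3 in the dark (5.29-fold, adjusted p = 0.00147). Tpbg, a leucine-rich repeat protein of the cell surface, had 644, 620 and 589 against 146 and 141 (4.27-fold, adjusted p = 0.00143). Fndc9, a membrane protein with a fibronectin domain, had 755, 394 and 366 against 103 and 68.4 (5.62-fold, adjusted p = 0.0457), and each omission ended its call (adjusted p up to 0.495, without dark replicate 3). The single fall was also a receptor. Npy2r, a receptor for neuropeptide Y, had 57.7, 57.1 and 31.1 in the light against 179 and 182 in the dark, a log2 difference of -1.92 ± 0.36 (SE, adjusted p = 0.0372; 7.37e-05 with the block). The groups did not overlap and both same-numbered pairs fell, by 1.62 and 2.51 on the log2 scale, but every fit that left out a library missed the threshold (adjusted p up to 0.306, without dark replicate 3). Npy2r is also one of 12 listed markers of VIP neurons; that list summed to 4678 to 5399 in the light and 4439.8 to 4998 in the dark, and Vip itself stood at 41.6, 46.6 and 98.1 against 46.5 and 162.

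Of 20 genes of MAP kinase feedback and the ETS factors, 3 rose, none fell, and 10 rose with the block. Dusp14, a protein phosphatase, had 950, 1144 and 1022 in the light and 285 and 367 in the dark (3.19-fold, adjusted p = 0.00459, and 0.0886 without dark replicate 1). Etv5, an ETS transcription factor, had 2317, 3200 and 2754 against 901 and 1044 (2.82-fold, adjusted p = 0.00121). Dusp4 was called near the threshold (2.25-fold, adjusted p = 0.0491) and lost in each omission (adjusted p up to 0.448, without dark replicate 3). With the block Dusp5, Dusp6, Dusp10, Spry4, Spred1, Spred2 and Spred3 joined them, all inhibitors of this kinase cascade, at log2 differences of 0.34 to 2.48. Irs2, the adaptor of insulin and IGF receptors, was the only one of 23 genes of IGF and insulin signalling called without the block, which added a fall of Pik3r1 (Irs2 had 4040, 5039 and 2929 against 1452 and 1062, 3.14-fold, adjusted p = 0.0279, called in 1 of 5 omissions, up to 0.367 without dark replicate 3). Igf1 had 2923, 2272 and 2255 in the light and 2644 and 2323 in the dark, a log2 difference of -0.01 with a 95% interval of -0.42 to 0.40.

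Of 20 listed genes of the circadian clock, 2 rose, Per2 and Cry2, which both encode repressors within it. Per2 had 699, 922 and 651 in the light and 244 and 226 in the dark (3.17-fold, adjusted p = 0.00632), and Cry2 had 4396, 5271 and 5402 against 2881 and 2969 (1.71-fold, adjusted p = 0.0376). The calls were kept in 3 and 1 of 5 omissions (adjusted p up to 0.0939, without dark replicate 3, and 0.335, without dark replicate 1). With the block 7 were higher and 2 lower. Among the higher ones were Cry1 (log2 1.303, adjusted p = 6.27e-06) and Per1 (0.49, adjusted p = 0.00148), and the lower ones were Nr1d1, with 3280, 3469 and 2701 against 4249 and 3424 (log2 -0.40, adjusted p = 0.0165), and Tef, with 2544, 2947 and 2922 against 3153 and 3468 (log2 -0.28, adjusted p = 0.02). The clock time at which each group was collected is not given in the sources used here.

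**Figure D2:**
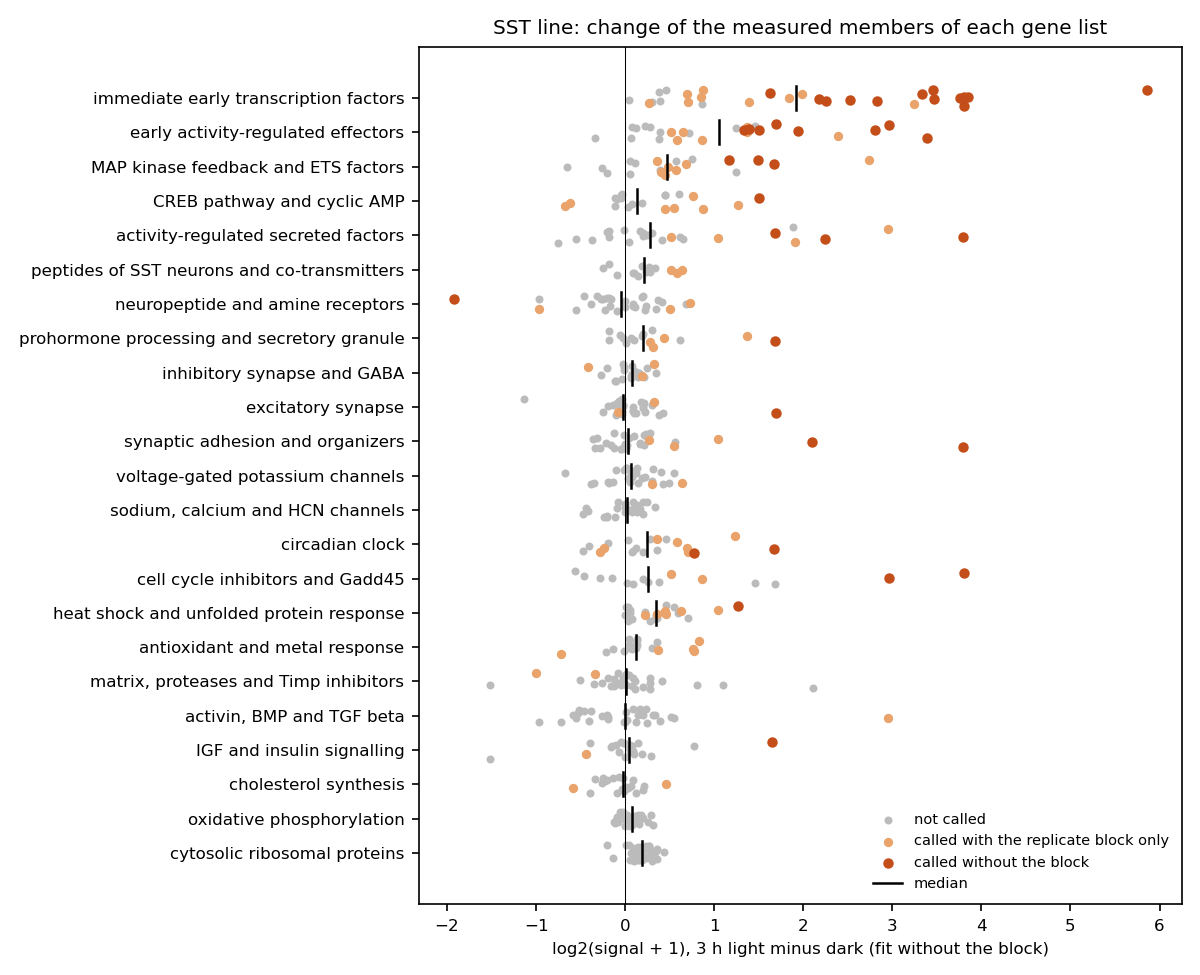
Fitted change in log2(signal + 1), 3 h of light minus dark, of every measured member of 23 gene lists in SST libraries; dark orange points were called without the replicate block, light orange points only with it, and black bars are medians. The immediate early transcription factors (median 1.91) and early effectors (1.06) lie to the right, while the medians of the channel, synapse and ribosomal lists lie between -0.02 and 0.19.

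Lists of channel, inhibitory synapse, oxidative phosphorylation and ribosomal protein genes had small median changes. None of 30 voltage-gated potassium channel genes, 26 sodium, calcium and HCN channel genes, 24 genes of the inhibitory synapse, 33 of oxidative phosphorylation and 37 of cytosolic ribosomal proteins was called without the block, with median log2 changes of 0.07, 0.02, 0.08, 0.08 and 0.19. Of the ribosomal protein genes, 35 of 37 had a change above 0 without the block, against 6904 of all 14206 genes tested. The median of these 37 was 0.10 when the block entered the fit. With the block the potassium channels Kcna1 and Kcnf1 were higher; Kcnf1 had 4822, 4699.6 and 5189.9 in the light and 2985 and 3324 in the dark (log2 0.64, adjusted p = 1.97e-05). Both GABA-synthesizing enzymes were then higher too, Gad1 by 0.37 and Gad2 by 0.32 on the log2 scale (adjusted p = 0.0208 and 0.0358), and Gabra5, a GABA receptor subunit, was lower by a log2 difference of -0.44 (adjusted p = 0.0359). Among 14 peptides and co-transmitters of SST neurons none was called without the block. With it Npy, Crh and Crhbp were higher. Npy shows what the block does, with 13363, 28281 and 36108 in the light and 8965 and 26378 in the dark: the groups overlapped, number 3 was high in both, and the log2 differences within numbers 1 and 3 were 0.58 and 0.45 (adjusted p = 0.00888 with the block; it did not pass without it).

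**Figure D3:**
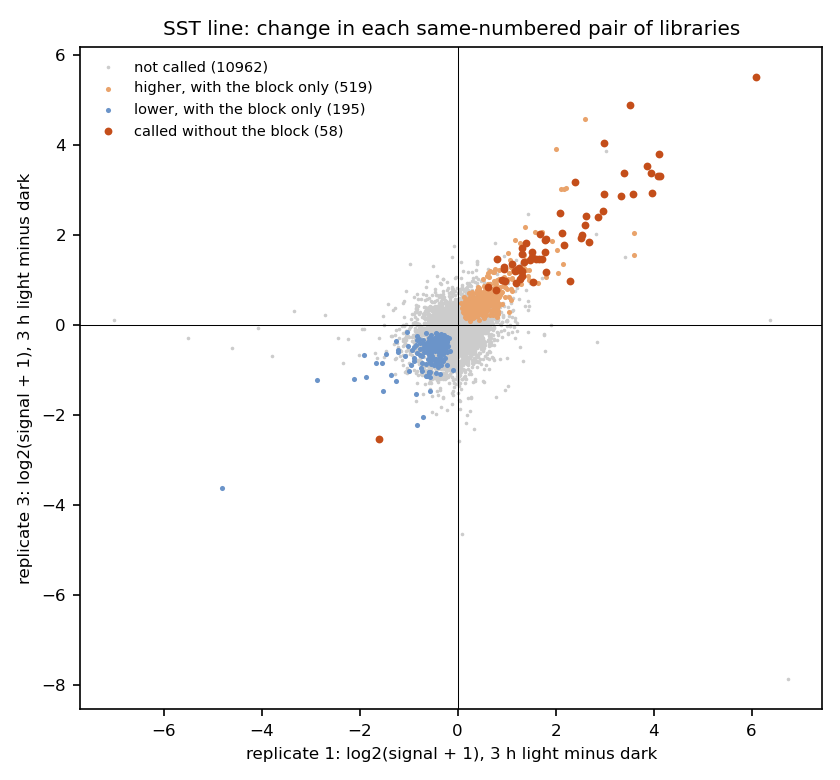
Log2(signal + 1) in the light library minus that in the dark library of the same number, number 1 on the horizontal and number 3 on the vertical axis, for each SST gene with a group mean of at least 50 and for all called genes. The 57 rises called without the block lie at the upper right, positive in both pairs, and Npy2r lies at the lower left; the block added 519 higher (light orange) and 195 lower (blue) genes.

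The block added 519 higher and 195 lower genes, with median log2 changes of 0.49 and -0.51 over all calls made with it in each direction. With the block, the libraries numbered 1 and 3 alone gave 408 higher and 116 lower. Leaving out 1 library at a time left 227 to 428 higher and 40 to 109 lower, the fewest without dark replicate 3.

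The largest of the added rises with a group mean of at least 50 were those of Inhba, Sertad1, Baz1a, Tnfrsf12a, Gm13889, Maff, Csrnp1 and Fam150b, at log2 differences of 1.67 to 3.04 with the block. Inhba, which encodes the subunit of activin A, had 218, 117 and 65.6 in the light and 53.8 and 3.38 in the dark (adjusted p = 0.0157 with the block and 0.307 without). Its light values spread widely, and the lowest one, of number 3, lay just above the dark one of number 1. Tnfrsf12a, a receptor of the TNF family, had 91.6, 142 and 206 against 27.1 and 48.5, and its pairs differed by 1.72 and 2.07 on the log2 scale (adjusted p = 2.53e-05 with the block and 0.346 without). Sertad1, a transcriptional coregulator, had 129, 225 and 238 against 9.67 and 56.6 (adjusted p = 1.49e-05 and 0.131). Maff, a small bZIP factor, had 49.0, 84.6 and 60.9 against 18.1 and 12.7 (adjusted p = 0.00303 and 0.0744).

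The largest added falls, by the same minimum, were those of Gen1, Pdgfc, Arhgap25, Rsph1, Gm21949, Notch1, Mina, 9430083A17Rik, Irf9, Pdzrn4, Myt1 and Rxrg, at log2 differences of -1.63 to -1.14 with the block, and none passed without it.  Pdgfc, a growth factor, had 32.9, 17.02 and 40.6 in the light and 96.1 and 114 in the dark (adjusted p = 0.00784 with the block and 0.163 without). Notch1, a receptor of cell-to-cell signalling, had 68.0, 67.1 and 54.1 against 219 and 98.0, so that the dark libraries differed from each other more than the light ones did (adjusted p = 0.0139 and 0.307). Irf9, a factor of interferon signalling, had 56.3, 37.5 and 29.8 against 102 and 87.8 (adjusted p = 0.0158 and 0.215). Myt1, a zinc finger factor, had 37.3, 43.6 and 61.6 against 111 and 111 (adjusted p = 0.0109 and 0.101).

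The sums of vessel markers did not overlap between the SST groups. The 9 measured endothelial and pericyte markers summed to 271 to 403 in the light libraries and 476 to 485 in the dark. Their log2 changes were below 0 in 9 of 9, while 6904 of all 14206 genes tested were above 0. The median of the 9 was -0.48, with no member called in either fit. In the VIP line these markers summed to 732 to 945 at 3 h and 1041 to 1242 in the dark. Sums overlapped in PV (228 to 320 against 227 to 404) and in Emx (277 to 350 against 348 to 423). In SST, microglial markers summed to 639.9 to 691 against 534 to 915 (a mean of 295 in the Emx line). Oligodendrocyte markers summed to 5653 to 7950 against 7400.2 to 8224, and astrocyte markers to 15246 to 21910 against 18512 to 21677 (means of 76350 and 186292 in the Emx line). No marker in these 4 lists was at 0 in all libraries of a group, and the part of such cells in the falls was not tested.

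The 3 h libraries were also set against those of 1 h and 7.5 h. These comparisons share libraries with the one against the dark and are not independent of it. Relative to 1 h, 14 genes (0.0985%) were higher at 3 h and 8 (0.0563%) lower; with the block the counts were 389 (2.74%) and 188 (1.32%). The falls were led by the early factors. Egr2 averaged 26.4 ± 17.6 in the dark, 2581 ± 911 at 1 h, 371 ± 165 at 3 h and 1229 ± 315 at 7.5 h (SD, n = 2, 3, 3 and 3), and the 3 h level was below that of 1 h by a log2 difference of -2.82 (adjusted p = 0.00704). Nr4a1 averaged 231, 8647, 1711 and 3670 at the same times (log2 -2.39, adjusted p = 0.00392), and Egr1 2756, 50876, 15419 and 26590 (log2 -1.73, adjusted p = 0.0112). Junb, Nr4a3 and Egr4 were lower than at 1 h by log2 differences of -2.27, -2.14 and -2.09. The calls of Nr4a1 and Egr4 held in all 6 omissions of a library, those of Egr2, Nr4a3, Egr1 and Junb in 4, 2, 2 and 1 (adjusted p up to 0.114). Fosb had 87.3 in the dark, 7758 ± 4689 at 1 h, 5257 ± 1422 at 3 h and 4632 ± 825 at 7.5 h, and neither 3 h against 1 h nor 7.5 h against 3 h passed.

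The genes higher at 3 h than at 1 h were led by Rab39, Nptx2, Unc5b, Cdkn1a, Lonrf3 and Sv2c. Rab39 averaged 32.1 in the dark, 20.4 at 1 h, 145 at 3 h and 193 at 7.5 h (3 h against 1 h, log2 2.79, adjusted p = 0.00326). Nptx2 averaged 83.6, 230.0, 1182 and 2417 at these times (log2 2.34, adjusted p = 0.00326). Unc5b averaged 56.2, 72.96, 304 and 429 (log2 2.05, adjusted p = 0.00599). Cdkn1a averaged 209, 799.8, 2970.3 and 4587.5 (log2 1.91, adjusted p = 0.00599), so that its 1 h mean already lay above that of the dark, while the 1 h mean of Rab39 did not. Lonrf3, which encodes a RING finger protein, had its highest mean at 3 h, with 220.3, 228, 767 and 468 (log2 1.77, adjusted p = 0.00326), and Sv2c, a synaptic vesicle protein, had 137, 134, 435 and 857 (log2 1.69, adjusted p = 0.0267). Rab39, Nptx2 and Lonrf3 were called in all 6 omissions, Unc5b and Cdkn1a in 5 (adjusted p = 0.0590 and 0.0600 without 3 h replicate 2) and Sv2c in 2 (adjusted p up to 0.197).

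**Figure D4:**
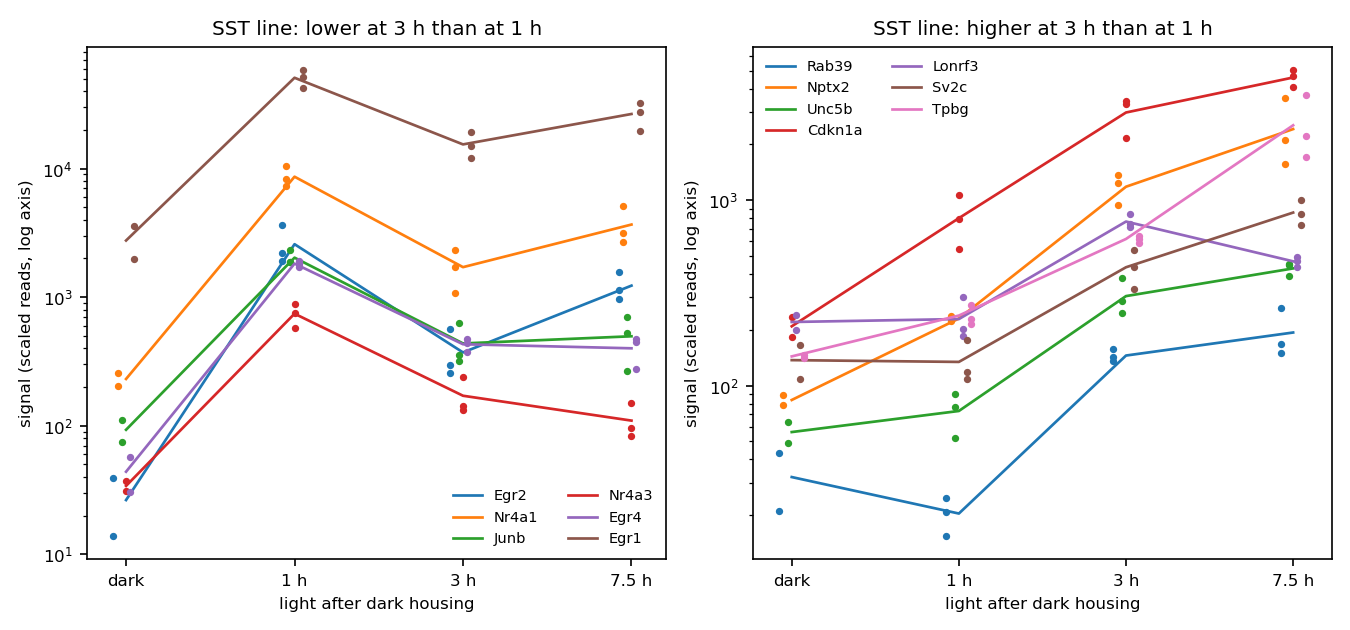
Signal (scaled gene reads, log axis) in SST libraries against hours of light after dark housing, with lines through group means and points for libraries (2 in the dark, 3 at each light time). On the left, 6 genes lower at 3 h than at 1 h, such as Egr2 (2581 at 1 h and 371 at 3 h); on the right, 6 genes higher at 3 h than at 1 h and Tpbg, which reached 2534 at 7.5 h.

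Between 3 h and 7.5 h only Tpbg was called (1 gene higher, 0.00704%, and 0 lower, 0.00%, in limma; 287 genes were higher and 291 lower at an unadjusted p under 0.05). It averaged 144 in the dark, 239 at 1 h, 618 at 3 h and 2534 ± 1024 at 7.5 h, with 1707, 2216 and 3679 in the 7.5 h libraries (log2 1.96 ± 0.23, adjusted p = 0.0193). The call held in 2 of 6 omissions (adjusted p up to 0.139, without 7.5 h replicate 2). With the block 347 genes (2.44%) were higher at 7.5 h and 257 (1.81%) lower. Among the genes then called lower, chosen after their values had been seen, were Nab2, with means of 643, 1969, 3846 and 2177 over the 4 times (adjusted p = 1.71e-05 with the block), Cry2, with 2925, 4063, 5023 and 3487 (adjusted p = 2.71e-05), and Lonrf3 (adjusted p = 0.00141). Rasl11a was higher, with 144, 1472, 1160.4 and 2855 (adjusted p = 0.00331).

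Whether the response differs from that of other inhibitory classes was tested as the SST change minus the mean of the PV and VIP changes, in a fit of all 73 libraries. It was larger in SST for 5 genes of 14214 (0.0352%) and smaller for 0 (0.00%; 126 at an unadjusted p under 0.05 in limma); with the block the counts were 16 (0.113%) and 5 (0.0352%). Unc5b, given above for SST, had 132, 201 and 139 against 119, 140 and 81.0 in PV and 486, 1226 and 531 against 695, 716 and 370.5 in VIP (3 h against dark), and its change was larger in SST by 2.03 ± 0.40 on the log2 scale (SE, adjusted p = 0.0193). Gadd45b had 204, 219 and 246 in PV light libraries against 165, 137 and 142 in the dark, and 475, 919 and 391 against 196, 268 and 182 in VIP, where it was called too (log2 1.38, adjusted p = 0.000649). Its change was larger in SST by 1.98 ± 0.35 (adjusted p = 0.00731). Gadd45b was also called higher in Emx (log2 2.04, adjusted p = 1.93e-07), and its SST minus Emx difference did not pass.

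For Tpbg the difference was 1.53 ± 0.29 (adjusted p = 0.0169), and its VIP libraries were already high in the dark (2046, 2895 and 2482 after light against 1754, 2652 and 2082). In PV it had 195, 297 and 227 against 93.1, 174 and 114 and was called as well (log2 0.94, adjusted p = 0.0367). Tpbg was called higher in Emx too (log2 1.21, adjusted p = 0.000258), and its SST minus Emx difference did not pass. Zfp516, a zinc finger factor, rose 3.01-fold in SST (1070, 1014 and 893 against 373 and 289) and had 904, 801 and 726 against 847, 700.2 and 850 in PV. In VIP it had 811, 1159 and 704 against 614, 417 and 528, and it was called there too (log2 0.76, adjusted p = 0.00906). The SST change exceeded the mean of PV and VIP by 1.197 ± 0.24 (adjusted p = 0.0273). Lpin2, a phosphatidate phosphatase of lipid synthesis, had 5188.5, 4537 and 4536 in SST light libraries and 2883 and 2923 in the dark. It did not pass in the fit of SST libraries without the block. In the fit of all lines it was called in SST (log2 0.71, adjusted p = 0.00542). Its changes in PV and VIP were -0.02 and -0.30, neither of them called. The SST change exceeded their mean by 0.87 ± 0.18 (adjusted p = 0.0301). Without 1 library at a time the count ranged from 0 to 7. The calls of Gadd45b, Tpbg, Unc5b, Zfp516 and Lpin2 held in 15, 13, 11, 9 and 5 of 17 omissions, with adjusted p up to 0.880 (Zfp516, without SST dark replicate 3). All 5 were also called with the block (adjusted p up to 0.000246). In the same fit the VIP line alone had 226 genes higher and 223 lower at 3 h. SST had 75 and 3 and PV 28 and 2, and these SST counts come from the variance of all lines. Among the genes called in the fit of SST libraries, Npy2r, Rab39, Fndc9, Prdm1, Zfp36, Sik1 and Dlx1as did not pass in SST here. The lowest adjusted p of these in limma was 0.0545 (Dlx1as), and Npy2r had 0.0561. Of the 57 genes that rose in the fit of SST libraries, 20 were called higher in PV, 35 in VIP and 37 in Emx. Over all 14214 genes, 28, 226 and 172 were.

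The promoters of Tpbg and Unc5b are shown because their change differed between SST and the other inhibitory classes. Capitals mark TGANTCA in the upstream of the 2 Tpbg windows (chr9:85842130-85842429, plus strand), which holds it 2 times; TGACG is in neither window of Tpbg and not in that of Unc5b (chr10:60831532-60831831, minus strand).
Tpbg: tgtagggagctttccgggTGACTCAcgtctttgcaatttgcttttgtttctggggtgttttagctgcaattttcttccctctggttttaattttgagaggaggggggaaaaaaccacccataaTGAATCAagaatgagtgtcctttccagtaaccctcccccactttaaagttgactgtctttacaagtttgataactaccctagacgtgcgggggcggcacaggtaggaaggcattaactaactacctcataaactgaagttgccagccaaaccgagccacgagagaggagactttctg
Unc5b: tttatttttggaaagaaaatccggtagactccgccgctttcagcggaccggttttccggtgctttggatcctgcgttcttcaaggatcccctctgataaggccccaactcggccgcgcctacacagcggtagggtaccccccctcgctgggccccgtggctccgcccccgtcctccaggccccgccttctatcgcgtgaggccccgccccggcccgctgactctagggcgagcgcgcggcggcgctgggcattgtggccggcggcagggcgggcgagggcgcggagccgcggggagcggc
Both windows are RefSeq sequence of GRCm38.p6, written in the direction of the gene.

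Against the Emx line, 4 genes (0.0281%) had a larger change in SST and 2 (0.0141%) a smaller one; with the block there were 24 (0.169%) and 33 (0.232%). Rnd3, whose protein lets actin fibres disassemble, had 1406.5, 1375 and 1489.6 in SST light libraries against 1403 and 1289 in the dark, and 1406, 1547 and 1724 against 349, 355 and 483 in Emx. The difference was -1.91 ± 0.21 (SE, adjusted p = 3.58e-08) and held in all 11 omissions. Tmem178, a membrane protein of the endoplasmic reticulum, showed the same order, with 4064, 3704 and 4298 against 3662 and 3796 in SST and 4258, 4803 and 5638 against 2547, 2323 and 2275 in Emx (-0.93 ± 0.17, adjusted p = 0.00801). Neither gene was called in PV or VIP, with log2 changes of -0.01 and 0.09 for Rnd3 and 0.10 and 0.22 for Tmem178.

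Unc5b had similar values in both Emx groups (485, 605 and 465 in the light against 464, 600.2 and 512 in the dark), and its change was larger in SST by 2.42 ± 0.45 (adjusted p = 0.00801). Nab2 had 1635, 2044 and 1170 in Emx light libraries against 1515, 1192 and 846 in the dark (larger in SST by 2.11 ± 0.39, adjusted p = 0.00801). Nab2 was also called higher in PV (log2 1.65, adjusted p = 7.98e-05) and VIP (log2 1.397, adjusted p = 0.000551). Zfp516 and Hunk, a protein kinase related to AMPK, were larger in SST by 1.37 ± 0.27 and 1.33 ± 0.26 (adjusted p = 0.0153 and 0.0139). In VIP, Hunk also rose, with 2059, 2850.1 and 2083 against 596, 582 and 551. Calls of Unc5b, Tmem178, Nab2, Hunk and Zfp516 held in 8, 7, 6, 5 and 4 of 11 omissions (adjusted p up to 0.476, Zfp516, without SST dark replicate 3). General markers of inhibitory neurons in the Emx line summed to 5515 to 5825 at 3 h and 4112 to 5267 in the dark. Vip, Pvalb and Slc32a1 were among the genes with a smaller change in SST than in Emx with the block (log2 -2.08, -1.35 and -0.83). Astrocyte markers in the Emx line summed to 175773 to 211263 at 3 h and 162380 to 206993 in the dark. The part of inhibitory neurons and of glia in the Emx values was not tested.

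**Figure D5:**
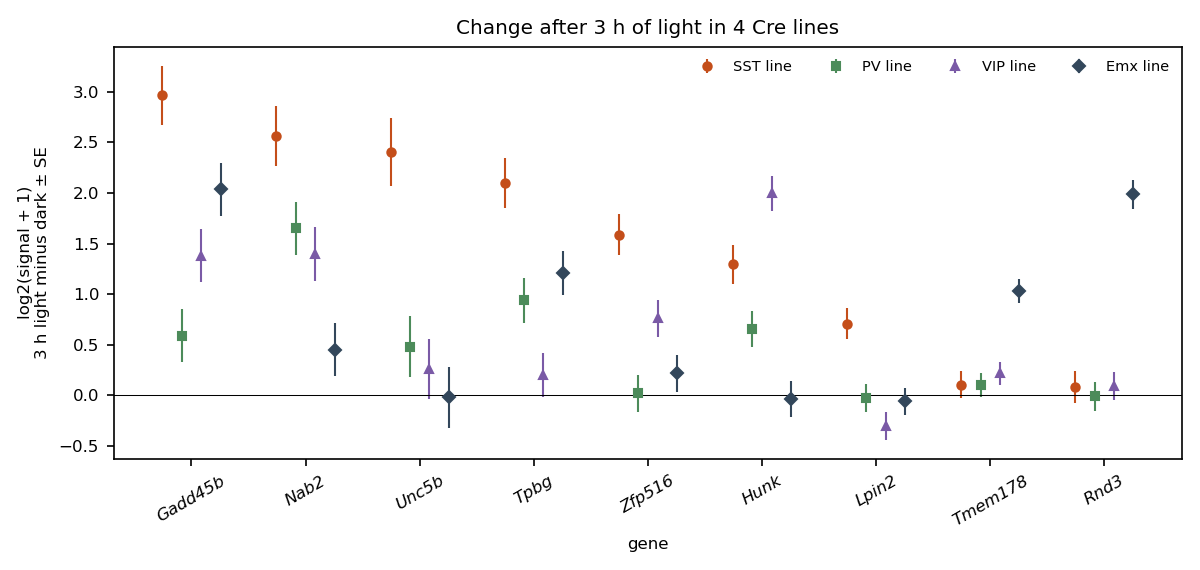
Fitted change in log2(signal + 1), 3 h of light minus dark, with its SE in the SST (circles), PV (squares), VIP (triangles) and Emx (diamonds) lines, for the 9 genes whose change differed between SST and the mean of PV and VIP or between SST and Emx. Unc5b changed by 2.40 in SST and by -0.02 to 0.48 elsewhere, while Rnd3 changed by 1.99 in Emx and by 0.08 in SST.

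Smaller rises outside the gene lists were chosen for description after their values had been seen. Frmd6, a FERM domain protein, had 1695, 1707 and 1847 in the light and 527 and 454 in the dark (3.57-fold, adjusted p = 0.000125). Pfkfb3, which sets the level of an activator of glycolysis, had 1009.8, 1126 and 908 against 332 and 326 (3.07-fold, adjusted p = 0.000852). Prdm1, a transcriptional repressor, had 1591, 1604 and 1616 against 824 and 656 (2.18-fold, adjusted p = 0.00489, and 0.111 without dark replicate 3), with an SD of 12.7 over the light libraries. Trim9, a ubiquitin ligase of neurons, was abundant and rose little, with 10337, 11382 and 9886 against 5971 and 5692 (1.80-fold, adjusted p = 0.0188; called in 1 of 5 omissions, adjusted p up to 0.218, without dark replicate 3). Dlx1as is antisense to a homeobox gene and reads of the 2 strands cannot be told apart here; it had 3878, 3894 and 3475 against 2063 and 1717 (1.99-fold, adjusted p = 0.00782, called in 3 of 5 omissions). Of the 58 calls, 25 were made in every omission. Without light replicates 1, 2 and 3 the fits called 38, 33 and 47 genes, of which 38, 33 and 46 were among the 58. Fewer of the 58 were kept without either dark replicate, the remaining dark library being assumed to vary like the other groups.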

How the data were processed

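RNA bound to HA-tagged ribosomes of SST neurons was amplified and sequenced by the authors, 1 library per pool of 3 mice. The deposited table gives 1 signal value per gene and library. Its low values are near whole multiples of a step that differs by library (92.9 to 96.6% of values up to 20 reads lie within 0.1 read of a whole number), so the signal was read as gene reads divided by a factor for each library; no source used here states the factor, and depth was estimated from the step. Per the submitters' processing notes, the tools were BWA, Cuffdiff 2.2.1, TopHat2 2.0.13, Cuffnorm and Bowtie2 2.1.0.0 and the build was mm9, with no role or order given; no mm9 coordinate was used.

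Of 14284 genes, 23 whose names had turned into dates were dropped. Suspect zeros were set aside (10 genes in SST, 46 over all lines). Genes that reached a signal of 1 in 3 or more libraries were tested with limma 3.58.1 (R 4.3.3) on log2(signal + 1), with trended and robust variances and Benjamini-Hochberg adjustment at 5%, over the 13 SST libraries, or over all 73 for differences between lines. Libraries of the same replicate number deviated from their group means together (r of 0.467 to 0.771 over 11562 genes in 23 pairs, and each of 13 libraries was nearest its own number), so values with the number as a block are given beside those without it. What the number stands for is not given in the sources used here. The dark group lacks number 2, so without the block the comparison also carries a difference in numbers.

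Genes were named by rank: the 22 largest rises and all falls against the dark, the 8 largest rises and 12 largest falls added by the block with a group mean of at least 50, the 6 largest per direction elsewhere, and listed pathway members. The members, lists and tests were chosen with earlier results of these data known. Alternatives were other pseudocounts, filters, scalings and variance models, fewer libraries, and each library left out. The SST fit was run on simulated data, with an effect of the replicate number simulated only for the fit with the block. The fit without the block was therefore not tried against such an effect. The result of 1 gene list is not reported here.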

Additional observations from a re-analysis of the deposited data

Results flagged for a closer look

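The change after 3 h of light differed between SST and the mean of PV and VIP, by a test of the difference itself, for 5 genes. The difference on the log2 scale was 2.03 for Unc5b, 1.98 for Gadd45b, 1.53 for Tpbg, 1.2 for Zfp516 and 0.87 for Lpin2. Between SST and Emx it was 2.42 for Unc5b, 2.11 for Nab2, 1.37 for Zfp516, 1.33 for Hunk, -0.93 for Tmem178 and -1.91 for Rnd3. Groups of 3 or fewer libraries are too small for a test of single outlying libraries.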

How the results depend on the processing

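With the replicate block, 3 h of light against dark gave 576 higher and 196 lower genes, against 57 and 1 without it. With 1 library left out, 31 to 47 were higher and 0 to 3 lower, and with the block as well the counts were 385 and 89, 428 and 109, and 379 and 84 without light replicates 1, 2 and 3, and 296 and 53 and 227 and 40 without dark replicates 1 and 3. The 5 libraries compared, fitted alone, gave 38 higher and 0 lower, and 804 and 423 with the block. Numbers 1 and 3 alone gave 18 and 0 without the block (736 genes had an unadjusted p under 0.05 in limma over all SST libraries) and 408 and 116 with it. Numbers 1 and 3 without the block, and the block with 1 library left out, were chosen after seeing the data. For 3 h against 1 h the counts were 389 and 188 with the block, 9 higher with no trend or robust moderation, and 4 to 9 and 3 to 8 in the omissions. For 7.5 h against 3 h they were 347 and 257 with the block, 5 and 1 with a pseudocount of 10, 0 and 1 with no trend or robust moderation, and 0 to 1 and 0 in the omissions. For SST minus PV and VIP they were 16 and 5 with the block, 1 lower with a pseudocount of 0.1 or of 10, and 0 to 7 and 0 in the omissions. For SST minus Emx they were 24 and 33 with the block, 4 lower with a pseudocount of 10, and 0 to 4 and 1 to 6 in the omissions. The cause of these shifts was not tested. Of the 58 genes called, 58 kept their call under both other scalings, 57 with a pseudocount of 0.1, 53 with 10 and 45 with no trend or robust moderation. Igf1, at -0.01, changed sign: its log2 difference was 0.0789 with the block, 0.0508 in the 5 libraries with the block and in numbers 1 and 3 with or without it, 0.0076 with median-of-ratios scaling, 0.0019 with trimmed-mean scaling and -0.1308 to 0.0856 in the omissions. With the block as well it was 0.0442, 0.0508 and 0.1565 without light replicates 1, 2 and 3, and 0.0541 and 0.1037 without dark replicates 1 and 3. A planned count test was not run, because the values could not be taken as whole reads for nearly all genes.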
